A study of Mus musculus with 6 samples.

Results

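The genes described here are 30 mouse genes of muscle energy and glycogen metabolism, chosen by name and found on the arrays by matching probe accessions to gene symbols. They were represented by 39 probes, out of 20659 genes that could be named on the array, and 32 probes of 26 members were bright enough to be tested. The RNA came from C2C12, a mouse line of 1 clone whose myoblasts fuse into myotubes once growth factors are withdrawn. Cells of 3 samples were transfected with siRNA to lncMGPF, a long noncoding RNA (si-lncMGPF), the other 3 are labelled si-NC and serve as the control, and all 6 were differentiated for 2 days. The 6 samples hold no untransfected or undifferentiated cells. No label says that replicates are separate cultures, and p-values therefore cover the spread between these 6 samples alone, which can be technical. The comparison asks which genes respond to loss of lncMGPF in early differentiation, and the level of the target itself was not checked here.

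Contracting muscle spends ATP faster than mitochondria can deliver it, and it bridges the gap with stores of its own. Creatine kinases move phosphate between ATP and phosphocreatine, adenylate kinase and AMP deaminase balance the adenine nucleotides, and glycogen phosphorylase releases glucose units that muscle-type glycolytic enzymes consume. Fatty acids, carried through the cytosol by a binding protein and into mitochondria by a carnitine transferase, supply longer work, with myoglobin storing oxygen and muscle-type subunits tuning cytochrome c oxidase. Many of these genes are muscle forms of enzymes that most tissues make in another form, and they are switched on as myoblasts become myotubes.

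Values are given as relative signal, the background-subtracted intensity of a probe divided by the 75th percentile of its array, and changes are differences of mean log2 relative signal, si-lncMGPF minus si-NC. Slide 1 carried the 3 si-NC arrays and replicate 1 of si-lncMGPF, while slide 2 carried the other two si-lncMGPF arrays, so most changes are also given within slide 1 and, with the si-NC arrays unchanged, for slide 2. A slide here means arrays that share a scan identifier in the file headers, since the sample titles name no slide. Negative control spots read 20.1 to 21.8 intensity units on slide 1 and 37.3 and 42.5 on slide 2. Among the brightest of 5 bins of tested probes the median change was -0.11 within slide 1 and 0.13 on slide 2. Of 10 myoblast and myotube markers, 9 were well above background on all 6 arrays, Myog and Myh3 included, and the list summed to 100 to 106 in si-NC and 82.6 to 105 in si-lncMGPF. Taken by their brightest probes, 4 of these 10 markers lay lower on each si-lncMGPF array than on any si-NC array. None lay higher throughout, and over all named genes the shares were 12.7% lower and 9.7% higher. The 4 were Actn2 (log2 change -0.74, SE 0.21, limma adjusted p = 0.228), Myh8 (-0.69, SE 0.21, limma adjusted p = 0.238), Myh3 (-0.15, SE 0.10) and Cdh15 (-0.15, SE 0.10). Within slide 1 and on slide 2 the changes were -0.37 and -0.92 for Actn2 and -0.25 and -0.91 for Myh8. They were -0.09 and -0.18 for Myh3 and -0.05 and -0.19 for Cdh15. A second Myh3 probe overlapped between groups (-0.25, SE 0.15, 0.03 within slide 1 and -0.39 on slide 2). Actn2 was well above background on all 3 si-NC arrays but on 2 of 3 si-lncMGPF arrays, so it was tested through si-NC alone. Myod1, Myog, Des, Mymk, Acta1 and Tnnt3 overlapped. No adipocyte marker of 5 was above background on all arrays, and Adipoq, Cfd and Lep never were (summed level 0.0445 to 0.0536 in si-NC and 0.0526 to 0.0692 in si-lncMGPF). Of 4 endothelial markers Cdh5 and Tek never were either, while Pecam1 and Kdr were on all 6 arrays. The list summed to 1.25 to 1.65 and 1.49 to 1.62. Both overlapped between groups, Pecam1 with a log2 change of 0.66 (SE 0.30, -0.04 within slide 1 and 1.02 on slide 2). That of Kdr was -0.12 (SE 0.14). The 3 leukocyte markers on the array, of 4 listed, summed to 2.71 to 3.28 in si-NC and 1.19 to 2.23 in si-lncMGPF, nearly all from 1 probe of Itgam, while Adgre1 was higher on each si-lncMGPF array (log2 change 0.14, SE 0.09). The 4 fibroblast markers summed to 0.501 to 0.526 and 0.410 to 0.488, with Lum lower (log2 change -0.54, SE 0.12) and Pdgfra higher (0.11, SE 0.08) on all 3 si-lncMGPF arrays. Actn2, Myh8, Myh3, Cdh15, Itgam and Lum thus lay in the direction of Fabp3, Cox6a2, Pygm and Mb below, and Adgre1 and Pdgfra in the other, and their part in the results was not tested. The 4 cardiomyocyte markers, summed over their brightest probes, overlapped between groups at 0.136 to 0.170 and 0.140 to 0.180. Nppa, which overlapped, changed by -0.82 (SE 0.32, -0.06 within slide 1 and -1.20 on slide 2). A dimmer Myh6 probe lay lower without overlap (-0.76, SE 0.36). Both were tested through si-NC alone. The brighter Myh6 probe changed by -0.12 (SE 0.16) and Tnni3 by 0.07 (SE 0.15).

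The muscle fatty acid carrier Fabp3, the muscle oxidase subunit Cox6a2, the muscle glycogen phosphorylase Pygm and myoglobin (Mb) had lower signal on each si-lncMGPF array than on any si-NC array, and the coactivator Ppargc1a had higher signal. In whole cultures, fewer cells making a transcript and less of it per cell cannot be told apart. None of the 32 member probes passed the test over all probes: 0 had an adjusted p below 0.05 in limma, where 0.105% of all tested probes did (0.077% lower, 0.0284% higher). At an unadjusted p below 0.05 there were 6 lower and 1 higher probe, against 9.43% of all tested probes lower and 6.4% higher. For 9 member probes, 8 lower and 1 higher, all si-lncMGPF arrays lay on 1 side of all si-NC arrays, which sets 9 of 32 beside 23% of all tested probes (13.4% lower, 9.63% higher). Taken as 1 probe per gene, 15 of the 26 members had a negative change and 11 a positive one, with a median of -0.03 beside 0.02 over all 14265 named genes. The arrays did not overlap for 8 of these 26, beside 22.4% of the named genes. As a family the members lay near the middle of the array. Of the 32 probes 30 fell between the 5th and 95th percentiles of all tested probes, at -0.59 and 0.39, and the 2 outside were the probes of Fabp3.

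**Figure D1:**
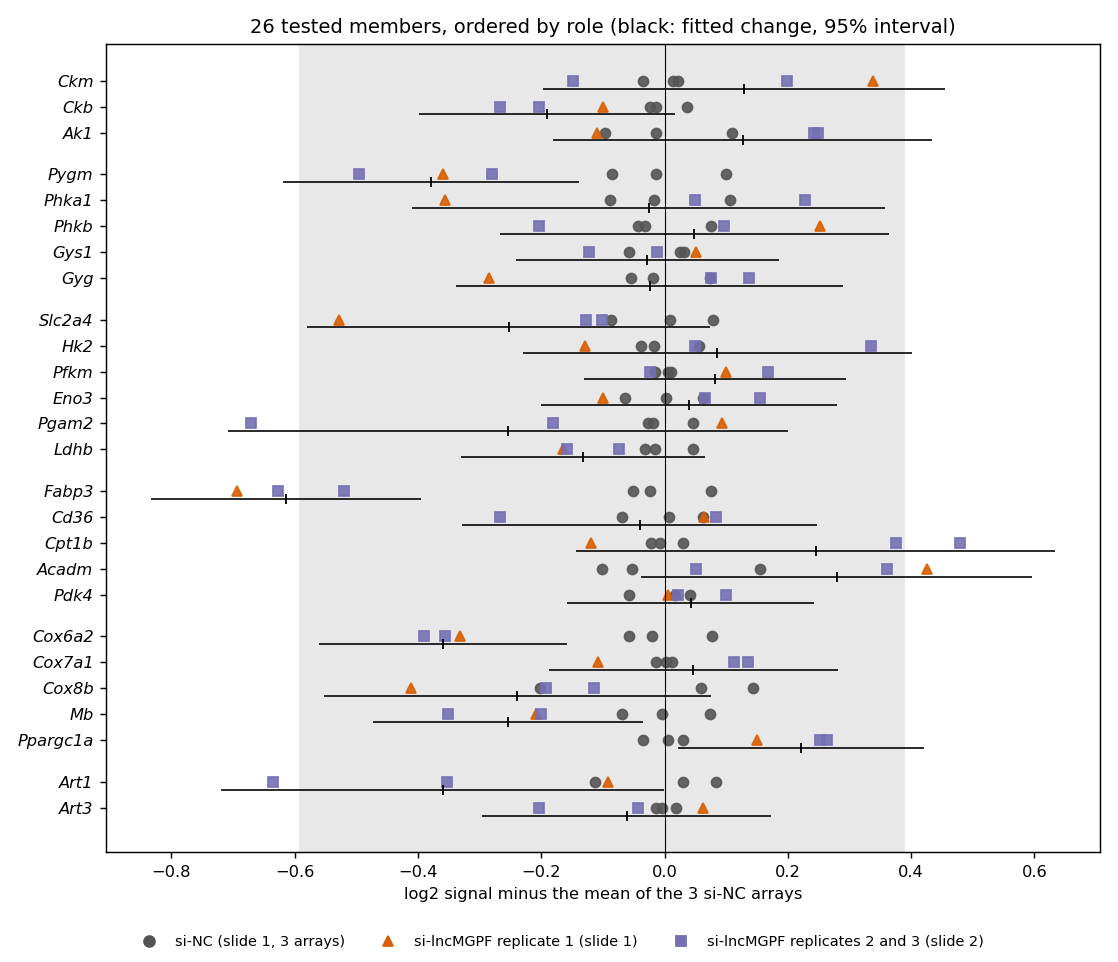
Log2 signal on each array minus the mean of the 3 si-NC arrays, for the brightest tested probe of 26 members in order of role, with the fitted change and its 95% interval in black; the grey band runs from the 5th to the 95th percentile of the change over all tested probes. Fabp3, Cox6a2, Pygm and Mb have all 3 si-lncMGPF arrays to the left of the si-NC arrays and Ppargc1a has them to the right, while most other members overlap.

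Fabp3 encodes the heart and muscle fatty acid binding protein, which ferries fatty acids through the cytosol. Its promoter is shown because this gene had the largest difference among the members. The sequence, from RefSeq on GRCm38.p6, is the 250 bases before the start at chr4:130308488-130308737 on the plus strand, with capitals marking matches to CANNTG, the E-box letters that MyoD-family factors bind.

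Fabp3: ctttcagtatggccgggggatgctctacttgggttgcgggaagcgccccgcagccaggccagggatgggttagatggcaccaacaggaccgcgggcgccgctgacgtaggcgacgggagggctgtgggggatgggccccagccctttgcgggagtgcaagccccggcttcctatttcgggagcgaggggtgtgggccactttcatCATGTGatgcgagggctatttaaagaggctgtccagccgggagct

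It holds 1 such match, 45 bases before the start. On the brighter of 2 probes, the relative signal of Fabp3 was 1.59, 1.74 and 1.63 on the si-NC arrays and 1.02, 1.07 and 1.15 on the si-lncMGPF arrays, in the order of replicates 1, 2 and 3 that is kept throughout. On the other probe it was 1.46, 1.59 and 1.52 against 0.888, 0.975 and 0.939. Both probes thus separated the groups, with a narrow spread inside each. The log2 change was -0.61 (SE 0.09, limma adjusted p = 0.123) on the brighter probe, a signal 34.6% lower, and -0.70 (SE 0.09, adjusted p = 0.0789) on the other. Within slide 1 the changes were -0.69 and -0.78, and on slide 2 they were -0.57 and -0.67, so the difference was as large within the slide as across slides. Over the alternatives tried the brighter probe's change ran from -0.69 to -0.55 and its adjusted p from 0.0124 to 0.645 (below 0.05 in 2 of 17). The other probe's adjusted p ran from 0.00638 to 0.592 and was below 0.05 in 3 of 16 alternatives.

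The arrays of the remaining fatty acid and fuel choice members overlapped between groups. Cd36, the fatty acid translocase of the cell surface, had relative signals of 0.0809, 0.0841 and 0.0767 in si-NC and 0.0841, 0.0669 and 0.0852 in si-lncMGPF, which overlapped (log2 change -0.04, SE 0.12). Cpt1b, the muscle carnitine palmitoyltransferase that admits long-chain fatty acids to mitochondria, had 0.0737, 0.0744 and 0.0764 in si-NC and 0.0689, 0.104 and 0.0971 in si-lncMGPF. Its slide 1 array lay below si-NC and its slide 2 arrays above, giving 0.25 over all arrays (SE 0.16), -0.12 within slide 1 and 0.43 on slide 2. Acadm, the medium-chain acyl-CoA dehydrogenase of beta-oxidation, had 3.42, 2.87 and 2.97 in si-NC and 4.13, 3.19 and 3.95 in si-lncMGPF (log2 change 0.28, SE 0.13, 95% interval -0.04 to 0.60). Replicate 2 of si-lncMGPF lay inside the si-NC range of Acadm. Pdk4, a kinase that inhibits pyruvate dehydrogenase, had 0.687 to 0.736 in si-NC and 0.718 to 0.767 in si-lncMGPF (log2 change 0.04, SE 0.08, 95% interval -0.16 to 0.24).

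**Figure D2:**
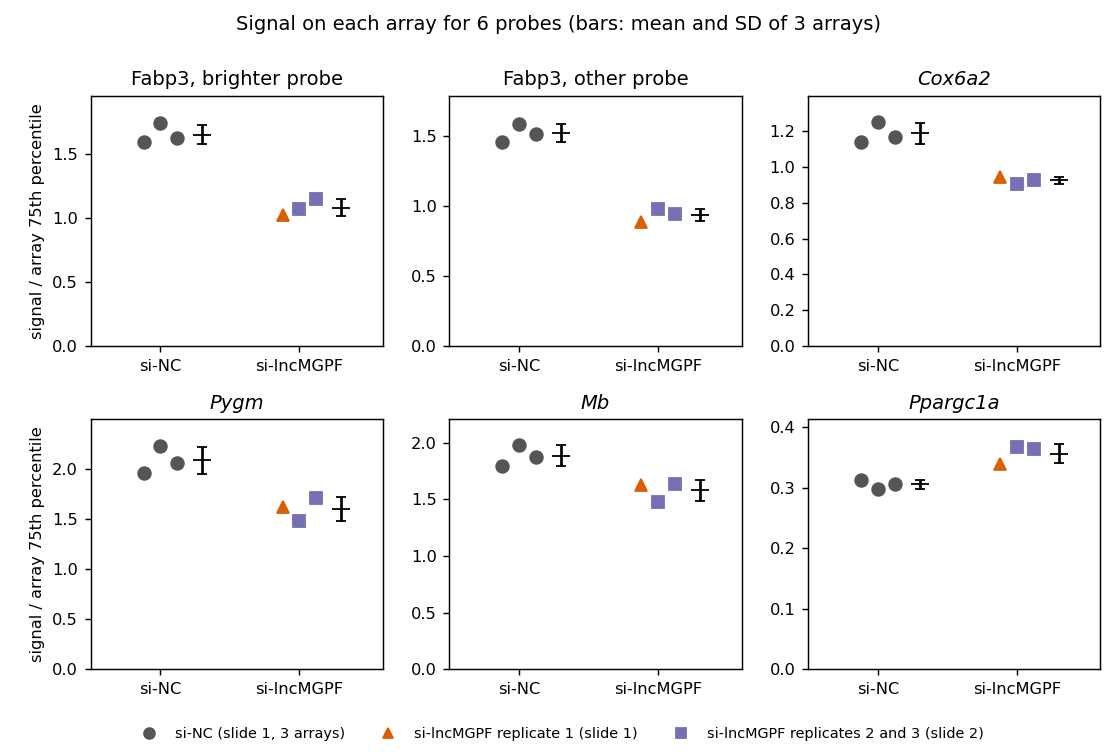
Relative signal (intensity over the array's 75th percentile, axis from 0) of 6 probes on each array, with the mean and SD of 3 arrays. Both Fabp3 probes, Cox6a2, Pygm and Mb lie lower on all si-lncMGPF arrays, whether on slide 1 or slide 2, and Ppargc1a lies higher, at 0.339 to 0.367 against 0.298 to 0.312.

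Cox6a2, the muscle and heart form of a cytochrome c oxidase subunit, had relative signals of 1.14, 1.25 and 1.17 on the si-NC arrays and 0.943, 0.906 and 0.929 on the si-lncMGPF arrays. The groups did not overlap, and the log2 change was -0.36 (SE 0.08, adjusted p = 0.199). It was -0.33 within slide 1 and -0.37 on slide 2. Mb had 1.79, 1.98 and 1.88 in si-NC and 1.63, 1.47 and 1.64 in si-lncMGPF, again without overlap (log2 change -0.25, SE 0.09, adjusted p = 0.271; -0.21 within slide 1 and -0.28 on slide 2). Of the other muscle-type oxidase subunits, Cox8b had 0.944, 1.20 and 1.13 in si-NC and 0.816, 1.003 and 0.951 in si-lncMGPF, with replicates 2 and 3 inside the si-NC range (log2 change -0.24, SE 0.13; -0.41 within slide 1 and -0.15 on slide 2). Cox7a1 had 0.954 to 0.970 in si-NC and 0.893, 1.06 and 1.04 in si-lncMGPF, on both sides of si-NC (log2 change 0.05, SE 0.10, 95% interval -0.19 to 0.28; -0.11 within slide 1 and 0.12 on slide 2). Within slide 1 all 3 subunits had negative changes, and differences between the subunits were not tested.

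Ppargc1a encodes PGC-1alpha, a coactivator that raises mitochondrial and oxidative genes. Its brighter probe had relative signals of 0.312, 0.298 and 0.307 in si-NC and 0.339, 0.367 and 0.364 in si-lncMGPF, the 1 member with all si-lncMGPF arrays above si-NC. The log2 change was 0.22 (SE 0.08, adjusted p = 0.281). It was 0.15 within slide 1 and 0.26 on slide 2. A second probe of Ppargc1a was not well above background on any array. Cox6a2 and Mb, which oxidative muscle makes in quantity, lay lower where this coactivator's transcript lay higher, while Cox7a1 and Cox8b overlapped between groups. A relation of these genes to Ppargc1a was not tested.

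Of the 5 tested glycogen members, Pygm alone did not overlap between groups (1 of 5, beside 22.4% of all named genes). The enzyme it encodes cuts glucose 1-phosphate from glycogen in muscle. Its relative signal was 1.96, 2.23 and 2.06 in si-NC and 1.62, 1.48 and 1.71 in si-lncMGPF, with no overlap (log2 change -0.38, SE 0.10, adjusted p = 0.22, a signal 23.1% lower). The change was -0.36 within slide 1 and -0.39 on slide 2. Phosphorylase kinase, which activates that enzyme, is built of several subunits. Phka1, its muscle alpha subunit, had 0.968, 1.11 and 1.02 in si-NC and 0.805, 1.21 and 1.07 in si-lncMGPF, with the slide 1 array below si-NC and the slide 2 arrays inside or above it (log2 change -0.03, SE 0.16, 95% interval -0.41 to 0.36). Phkb, the beta subunit, had a change of 0.05 (SE 0.13) on its brighter probe and 0.26 (SE 0.17) on the other, with overlap on both. Phkg1, the catalytic subunit of muscle, had 2 probes and neither was well above background on any array.

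The members that build glycogen, Gys1 and Gyg, overlapped between groups on each of their probes. Gys1, the muscle glycogen synthase, had 0.899, 0.951 and 0.956 in si-NC and 0.969, 0.859 and 0.927 in si-lncMGPF on its brighter probe (log2 change -0.03, SE 0.09), and 0.25 (SE 0.17) on the other. Gyg, encoding glycogenin, the protein that primes a new glycogen particle, had changes of -0.02 and 0.03 (SE 0.13 on both probes). On the brighter Gyg probe the slide 1 array of si-lncMGPF, at 3.67, lay below the si-NC range of 4.30 to 4.70, and the slide 2 arrays, at 4.91 and 4.71, lay above it. The 95% interval of the brighter probe was -0.24 to 0.19 for Gys1 and -0.34 to 0.29 for Gyg.

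The promoters of Pygm, Mb and Ppargc1a are shown for comparison with Fabp3, since these members also separated the groups at an unadjusted p below 0.05 in limma. They are the 250 bases before the start, written 5′ to 3′ from RefSeq on GRCm38.p6, with the same capitals. Pygm lies at chr19:6384158-6384407 on the plus strand, Mb at chr15:77022728-77022977 on the minus strand (the third of 3 starts in the table) and Ppargc1a at chr5:51567726-51567975 on the minus strand.

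Pygm: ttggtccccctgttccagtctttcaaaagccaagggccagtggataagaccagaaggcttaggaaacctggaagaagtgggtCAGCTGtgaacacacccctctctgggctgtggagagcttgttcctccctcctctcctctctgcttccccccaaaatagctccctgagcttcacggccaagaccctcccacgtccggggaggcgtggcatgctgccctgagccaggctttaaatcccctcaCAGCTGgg
Mb: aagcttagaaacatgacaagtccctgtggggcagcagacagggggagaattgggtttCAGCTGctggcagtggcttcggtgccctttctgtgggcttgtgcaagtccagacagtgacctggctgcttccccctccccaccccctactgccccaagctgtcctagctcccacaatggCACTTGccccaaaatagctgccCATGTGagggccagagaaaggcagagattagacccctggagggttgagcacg
Ppargc1a: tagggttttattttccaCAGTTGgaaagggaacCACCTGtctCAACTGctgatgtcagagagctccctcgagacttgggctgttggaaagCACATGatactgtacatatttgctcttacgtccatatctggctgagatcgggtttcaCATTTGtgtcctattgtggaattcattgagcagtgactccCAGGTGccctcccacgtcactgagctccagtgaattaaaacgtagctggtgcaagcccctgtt

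Pygm holds 2 matches to CANNTG, 168 and 8 bases before the start, and both read CAGCTG. Mb holds 3, at 193, 74 and 52 bases, the first of them in the form CAGCTG. The windows of the first and second Mb starts, not printed, hold 2 matches each, with CAGCTG in the second alone. Ppargc1a holds 6, none of that form. Ckb and Ldhb, whose brightest probes also separated the groups, had no match to CANNTG in their windows. Cox6a2 and Slc2a4, which separated the groups too, had no window. Both motifs read the same on either strand, and each match to the narrower is also counted under the wider. Over the 26 members with a window, 11 had CAGCTG in at least 1 of theirs (42.3%), beside 14.7% of 27018 genes, and 21 had the wider motif (80.8% beside 69.3%). Those 11 were Ak1, Art1, Ckm, Ckmt2, Cox8b, Fbp2, Gys1, Mb, Pgam2, Phka1 and Pygm, so the letters occurred in members with negative, with positive and with unmeasured changes. The MEF2 consensus, searched on both strands, was found for Ckb and Pgam2 (7.69% of members beside 3.41% of genes). TATAAA on either strand was found for 11.5% of members beside 14.3% of genes, and GGGCGG for 26.9% beside 35.4%. A match is a description of letters and not a site shown to be bound.

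Among the glucose uptake and glycolysis members, the signals of Slc2a4 and Ldhb did not overlap between groups, by small margins. Slc2a4, the insulin-responsive glucose transporter GLUT4, had 0.0954, 0.107 and 0.102 in si-NC and 0.0702, 0.0927 and 0.0944 in si-lncMGPF (log2 change -0.25, SE 0.14, adjusted p = 0.398). The slide 1 array carried most of that, at -0.53 against -0.11 on slide 2. Ldhb, the heart form of lactate dehydrogenase, had 1.38, 1.46 and 1.40 in si-NC and 1.26, 1.34 and 1.26 in si-lncMGPF (log2 change -0.13, SE 0.08, adjusted p = 0.453). Pgam2, the muscle phosphoglycerate mutase, had 0.320, 0.306 and 0.304 in si-NC and 0.330, 0.194 and 0.273 in si-lncMGPF. Its slide 1 array was above si-NC and its slide 2 arrays below (log2 change -0.25, SE 0.19; 0.09 within slide 1 and -0.43 on slide 2).

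The brightest member was Eno3, the muscle enolase, at 55.2, 60.2 and 57.7 in si-NC and 53.8, 60.3 and 64.2 in si-lncMGPF, which overlapped (log2 change 0.04, SE 0.10, 95% interval -0.20 to 0.28, and -0.02 with quantile normalization). Pfkm, the muscle phosphofructokinase, read by 10 spots on each array, had 3.09, 3.03 and 3.07 against 3.28, 3.01 and 3.44 (log2 change 0.08, SE 0.09, 95% interval -0.13 to 0.29). Hk2, the hexokinase of muscle that traps glucose in the cell, had 3.43, 3.22 and 3.26 against 3.02, 4.17 and 3.42 (log2 change 0.09, SE 0.13). Within slide 1 the changes of Eno3, Pfkm and Hk2 were -0.10, 0.10 and -0.13, and on slide 2 they were 0.11, 0.07 and 0.19, so only Pfkm of these 3 had 1 sign on both. Fbp2, the muscle fructose bisphosphatase, was not well above background on any array.

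No phosphagen gene separated the groups on all of its probes. Ckm, the muscle creatine kinase and a classical mark of myotube formation, had relative signals of 0.515, 0.535 and 0.532 in si-NC and 0.666, 0.476 and 0.605 in si-lncMGPF (log2 change 0.13, SE 0.14, 95% interval -0.20 to 0.46; 0.34 within slide 1 and 0.025 on slide 2). With 1 array left out the change of Ckm ranged from 0.025 to 0.27, the lowest without si-lncMGPF replicate 1 and the highest without si-lncMGPF replicate 2. Replicate 2 of si-lncMGPF lay below si-NC and the other two above. Ckb, the brain-type creatine kinase that myoblasts also make, had 3.57, 3.70 and 3.55 against 3.36, 2.999 and 3.13 on its brighter probe (log2 change -0.19, SE 0.09, adjusted p = 0.342), without overlap. The other Ckb probe gave 1.08, 1.08 and 1.06 against 1.11, 1.02 and 1.22 (log2 change 0.05, SE 0.10), so the probes of Ckb disagreed in sign. Ak1, the muscle adenylate kinase, had 18.7, 21.6 and 19.8 against 18.5, 23.7 and 23.8 (log2 change 0.13, SE 0.13), with -0.11 within slide 1 and 0.25 on slide 2. Ampd1, the muscle AMP deaminase, was not well above background on any array. Ckmt2, the mitochondrial creatine kinase of muscle, was above background on si-NC replicate 1 alone, at 0.0330, with 0.00408 to 0.00822 on the other 5 arrays.

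Art1 and Art3 encode cell-surface ADP-ribosyltransferases of muscle. Art1 had 0.110, 0.126 and 0.121 in si-NC and 0.111, 0.0765 and 0.0930 in si-lncMGPF, with the slide 1 array inside the si-NC range (log2 change -0.36, SE 0.15, adjusted p = 0.315; -0.09 within slide 1 and -0.49 on slide 2). Its adjusted p ran from 0.0443 to 0.721 over the alternatives. Art3 had -0.06 (SE 0.10) on its brighter probe and 0.26 (SE 0.39) on a dim one, above background on 2 of 3 si-lncMGPF arrays, that was 0.0421 to 0.0582 in si-NC and 0.103, 0.0330 and 0.0648 in si-lncMGPF.

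**Figure D3:**
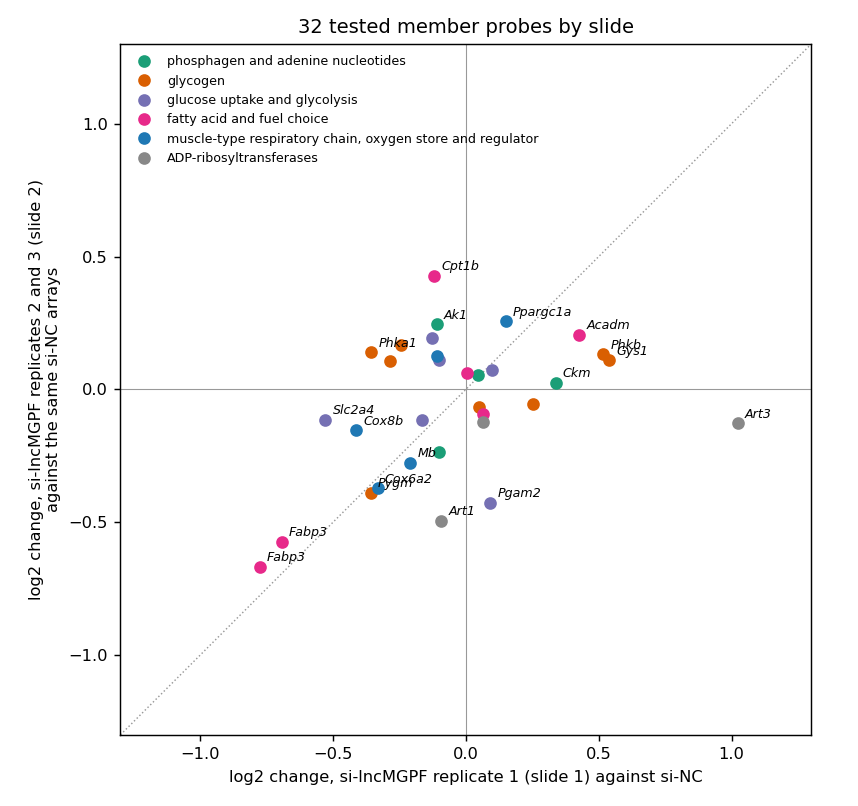
Log2 change of the 32 tested member probes within slide 1 (x axis, from 1 si-lncMGPF array) against that of slide 2 (y axis, from the other two), both relative to the same 3 si-NC arrays; the dotted line marks equal changes. Both Fabp3 probes, Pygm, Cox6a2 and Mb lie near the line at lower left, and Art1, Pgam2, Cpt1b and 1 Art3 probe lie far from it.

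Where the slides could be compared, 18 of the 32 member probes had the same sign on both, 10 negative and 8 positive, and 14 had opposite signs. The 2 comparisons share their si-NC arrays, and the share of equal signs over all tested probes is not given here. The si-lncMGPF array of slide 1 lay below all si-NC arrays for 17 member probes and above them for 13, beside 43.2% and 32.6% of all tested probes. When si-lncMGPF replicate 1 was left out, so that group and slide coincide and cannot be told apart, 5 member probes had an adjusted p below 0.05: both of Fabp3, Cox6a2 and Art1 lower and Cpt1b higher. That is 5 of 32 beside 16.6% of all tested probes (9.6% lower, 7.04% higher). The change within slide 1 had the same sign for Fabp3, Cox6a2 and Art1 and the opposite sign for Cpt1b. Over all alternatives the adjusted p ran from 0.0295 to 0.645 for Cox6a2 and from 0.0189 to 0.805 for Cpt1b.

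Most muscle-type members have a relative that many tissues make, and the change of each pair was compared within each array. Of 20 pairs 16 could be measured, and the form named first lay lower relative to its counterpart in 12. These 12 include Ldhb, the heart form and not a muscle-type one, against Ldha, where both are broadly made. Fabp3 against Fabp5, an epidermal-type fatty acid carrier, differed by -0.99 on the log2 scale, with -0.61 within slide 1 and -1.18 on slide 2. Cox6a2 against Cox6a1 differed by -0.52 (-0.24 and -0.66), Cox8b against Cox8a by -0.48 (-0.44 and -0.49), and Slc2a4 against Slc2a1, the widespread glucose transporter GLUT1, by -0.48 (-0.45 and -0.50). In these 4 pairs the ratio lay lower on each si-lncMGPF array than on any si-NC array. The ratio was also lower without overlap for Ldhb against Ldha (-0.37), Eno3 against Eno1 (-0.27) and Pdk4 against Pdk1 (-0.16). It was higher for Ckm against the brighter Ckb probe (0.32) and for Ppargc1a against Ppargc1b (0.998). The other Ckb probe, which changed by 0.05 where the brighter changed by -0.19, was not used in a pair. In the other 7 pairs the arrays overlapped, among them Pygm against the brain-type phosphorylase Pygb (-0.54) and Pgam2 against Pgam1 (-0.62). An exact two-sided permutation test over 3 against 3 arrays cannot go below p = 0.1, and 9 of 16 pairs reached that value (0.178 after adjustment over the 16 pairs). The share of non-overlapping ratios among other pairs of genes was not computed, and among single named genes 22.4% did not overlap. The counterparts alone had a median change of 0.22, with -0.03 within slide 1 and 0.32 on slide 2, and 9 of the 16 counterparts and 1 of the 16 first forms belonged to the brightest bin of probes. The median of all probes in that bin also lay higher on slide 2, and its part in the pair differences was not tested.

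**Figure D4:**
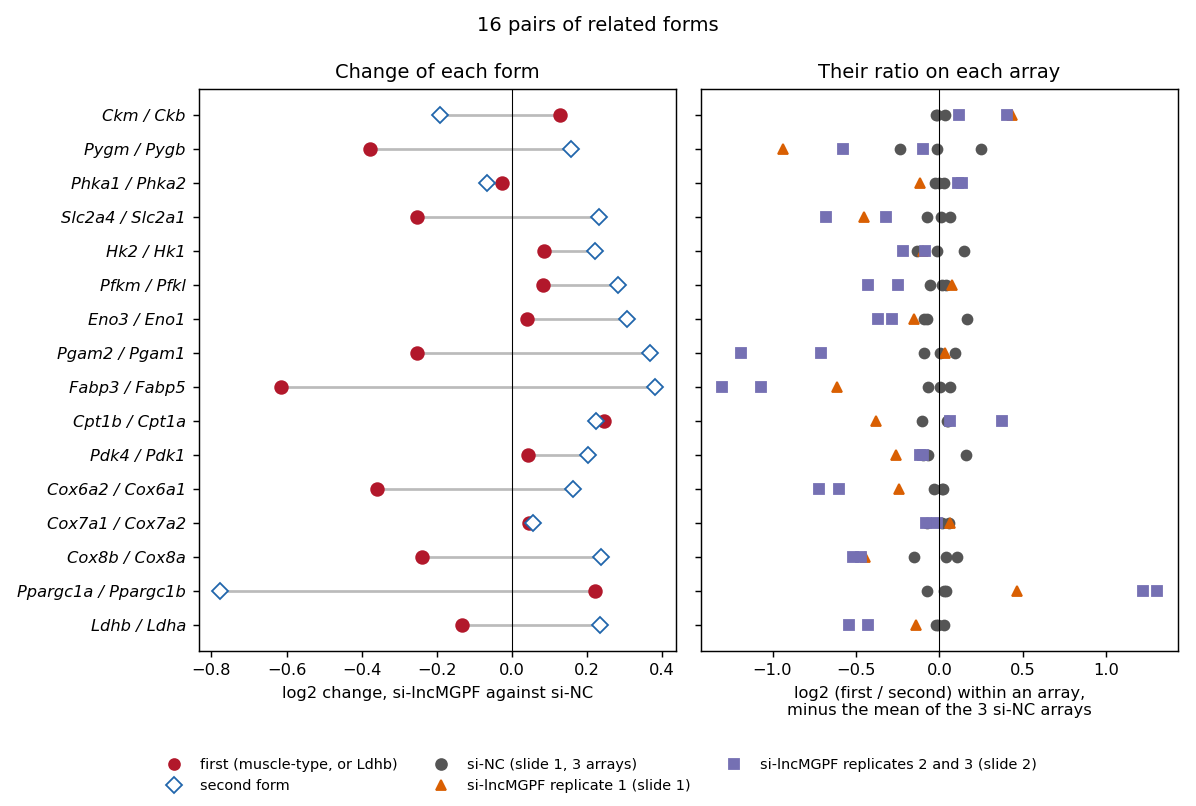
Left, log2 change of the first form (filled circle, muscle-type except for Ldhb, the heart form) and its broadly expressed relative (open diamond) in 16 pairs. Right, log2 ratio of the pair within each array minus the mean of the 3 si-NC arrays. The ratio is lower on all si-lncMGPF arrays for Fabp3/Fabp5, Cox6a2/Cox6a1, Cox8b/Cox8a and Slc2a4/Slc2a1. It is higher for Ppargc1a/Ppargc1b and for Ckm/Ckb, which uses the brighter of the Ckb probes, whose changes differ in sign.

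Around the members, 96 other genes of the same pathways were listed and 85 of them were tested, and none passed (0 with an adjusted p below 0.05 in limma, and 5 lower and 5 higher at an unadjusted p below 0.05, beside 8.14% lower and 6.04% higher over all named genes). The arrays did not overlap for 12 lower and 11 higher of them, beside 12.7% and 9.7%. Their median change was 0.06, -0.08 within slide 1 and 0.11 on slide 2. Ppargc1b, the PGC-1beta coactivator related to Ppargc1a, had relative signals of 0.378, 0.334 and 0.346 in si-NC and 0.282, 0.181 and 0.170 in si-lncMGPF, without overlap (log2 change -0.78, SE 0.20, adjusted p = 0.214; -0.32 within slide 1 and -1.01 on slide 2). It lay in the opposite direction to Ppargc1a. Tfam, the factor that packages and transcribes mitochondrial DNA, had 1.78, 1.54 and 1.67 against 2.17, 1.96 and 2.13 on its brightest probe (log2 change 0.33, SE 0.10, adjusted p = 0.23), and 0.26 and 0.18 on its others. Prkaa2, the muscle-rich catalytic subunit of the energy sensor AMPK, was above background on all si-NC arrays and on no si-lncMGPF array. It was at least 1.05-fold lower, a bound in which each si-lncMGPF array counts at its lowest signal above background or at the Prkaa2 signal, whichever is larger. The limma adjusted p of 0.229 belongs to the measured signals and not to that bound. Prkaa2 was tested through its si-NC arrays alone, which favours a lower si-lncMGPF value.

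Among the fuel genes outside the members, Slc6a8, the transporter that brings creatine into the cell, had 9.80, 10.3 and 9.998 in si-NC and 7.20, 8.50 and 6.91 in si-lncMGPF, without overlap (log2 change -0.42, SE 0.11, adjusted p = 0.214; -0.48 within slide 1 and -0.39 on slide 2). Gaa, the lysosomal enzyme that digests glycogen, had 4.61, 5.34 and 5.21 against 3.92, 4.33 and 3.85 (log2 change -0.32, SE 0.10) on its brighter probe, and its other probe was above background on 1 of 3 si-lncMGPF arrays. Gbe1, the enzyme that puts branches into glycogen, had 1.76, 1.85 and 1.85 against 2.04, 3.13 and 2.92 (log2 change 0.54, SE 0.17; 0.16 within slide 1 and 0.73 on slide 2). Hadh, a dehydrogenase of beta-oxidation, had 1.47, 1.39 and 1.44 against 1.83, 1.59 and 1.92 (log2 change 0.31, SE 0.10). Ucp2, a mitochondrial carrier, had 0.31 (SE 0.11) and the pyruvate dehydrogenase kinase Pdk3 0.31 (SE 0.12), and the fatty acid transport protein Slc27a4 had -0.44 (SE 0.15).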

How the data were processed

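Total RNA from 6 samples of C2C12 cells was read on 1-colour Agilent arrays. Intensity in the deposited tables is linear, and Feature Extraction 11.0.1.1 had subtracted background and detrended it within each array, per the file headers. The series value table of the authors holds the same intensity values at 44397 of 44397 spots on each array. Column medians of that table were 70.2, 54.2 and 59.9 for si-NC and 74.3, 42.8 and 38.3 for si-lncMGPF, so it is neither centred nor scaled between arrays. Any later processing by the authors is not given in the sources used here.

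Control spots and spots marked as outliers (117 to 134 per array) were left out, no spot was saturated, and log2 intensity minus the array's 75th percentile was averaged over the spots of a probe. This scale cannot show a shift shared by most transcripts. Testing required a probe to be well above background on all 3 arrays of si-NC or of si-lncMGPF, which left 24661 of 39429 probes, 14265 named genes. Accessions without version named 27234 probes from a RefSeq table (GRCm38.p6, another build than the array's, used for names). The brightest tested probe stood for a gene. Promoters matched for 26 of the 30 members.

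The test was limma 3.58.1 (lmFit and eBayes, R 4.3.3) without covariates, with Benjamini-Hochberg adjustment over all tested probes and a threshold of 0.05. Pairs were compared by exact permutation in scipy 1.17.1, and figures drawn with matplotlib 3.10.9. On simulated data for 3 against 3 arrays (24617 probes, 10 runs, 200 changed probes a run) it found 21.0% of 1.5-fold, 59.7% of 2-fold and 90.2% of 4-fold changes, with 4.47% of calls false; no slide effect was simulated. For 1 gene of these lists and its pair, results are not reported here. Members, lists and pairs were chosen with earlier results of these data known. Per-array values are given for members whose groups did not overlap, for the brightest of each role, for those whose probes disagreed, and for further members chosen after their values were seen. Same-numbered arrays of the groups correlated at 0.185, 0.318 and -0.0582 in their deviations from the group means. Differently numbered arrays correlated at -0.292 to 0.0613. These values do not settle whether replicate numbers pair the samples, and the main test did not use the numbers. Precision is limited by there being 3 arrays a group.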

Additional observations from a re-analysis of the deposited data

How the results depend on the processing

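Alternatives were quantile normalization, median centring, normexp, the series table's values, other filters on dim probes, a trended robust variance, slide or replicate number as a block, slide 1 alone, a mean over probes, and leaving out each array. The series table's values are those of the main test, so that alternative could not differ from it. Slide as a block gives the change within slide 1, and median centring cannot alter a pair difference. The count of member probes past the threshold was 0 and became 1 with normexp and 1 with the trended robust variance, the second Fabp3 probe in both, and ranged from 0 to 5 with an array left out (5 without si-lncMGPF replicate 1). The count over all probes was 26, and 6 with quantile normalization, 0 without a filter, 10 with slide as a block, 1 on slide 1 alone and 0 with replicate number as a block (replicate block, which changed no member's call), and ranged from 0 to 4105 with an array left out. That of the other pathway genes was 0 and ranged from 0 to 13 with an array left out (13 without si-lncMGPF replicate 1). Without a filter the median change of all probes was 0.12, against 0.01.

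Fabp3, Cox6a2, Pygm, Mb and Ppargc1a were among 14 of 26 members that kept their sign in every alternative. Sign turned within slide 1, and equally with slide as a block, for Ak1 (-0.11), Gys1 (0.051), Hk2 (-0.13), Eno3 (-0.10), Pgam2 (0.092), Cd36 (0.063), Cpt1b (-0.12), Cox7a1 (-0.11) and Art3 (0.063). It also turned for Eno3 with quantile normalization (-0.015) and, with a mean over probes, for Gys1 (0.11), Gyg (0.0026) and Art3 (0.10). With an array left out the change ranged from -0.15 to 0.14 for Phka1, -0.054 to 0.17 for Phkb, -0.067 to 0.019 for Gys1, -0.11 to 0.11 for Gyg, -0.039 to 0.19 for Hk2, -0.018 to 0.11 for Eno3, -0.10 to 0.073 for Cd36 and -0.12 to 0.0099 for Art3. Pair differences turned within slide 1 for Phka1 against Phka2 (-0.12), Pfkm against Pfkl (0.073), Pgam2 against Pgam1 (0.035), Cpt1b against Cpt1a (-0.38) and Cox7a1 against Cox7a2 (0.065), with quantile normalization for Cpt1b against Cpt1a (-0.0043) and Cox7a1 against Cox7a2 (0.034), and with normexp for Cpt1b against Cpt1a (-0.065). The cause was not tested.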
